A study of Homo sapiens with 2 samples.

Results

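The Rab GTPases of the human ovarian cancer line A2780 were taken as the 63 protein-coding genes whose symbol is RAB followed by a number and at most 1 letter, out of 58735 genes in the deposited table. The members were chosen by symbol and biotype alone, so that Rab-like genes and genes of Rab partners are not among them. RNA was sequenced from 1 library labelled shJAM3, of JAM3 knockdown genotype, and 1 library labelled shControl, of WT genotype. Per the design text the knockdown was stable and the control cells received an empty vector, and that text speaks of siRNA where the titles carry the prefix sh. Both libraries came from cells in logarithmic growth. The sources used here do not give the number of clones or cultures behind each library, nor the construct. With 1 library in each group there is no replicate check and no p-value, and shJAM3 and shControl below name the libraries by their labels.

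Rab proteins are small GTPases that mark membranes of the secretory and endocytic pathways and recruit the tethers, motors and adaptors that move and fuse vesicles. Each is switched on by an exchange factor (GEF), which loads GTP, and switched off by a GTPase-activating protein (GAP). A Rab escort protein presents it to a geranylgeranyl transferase, which attaches lipids to cysteines at the C-terminus, and GDP dissociation inhibitors (GDI) carry the inactive form through the cytosol. Epithelial and carcinoma cells use Rabs to sort adhesion molecules, integrins and growth factor receptors between the cell surface, recycling endosomes and lysosomes.

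Most members have cysteine codons at or near the end of their coding sequence. In the principal GENCODE 29 transcripts, 50 of the 63 genes had 2 cysteine codons among the last 5 codons, 11 had 1 and 2 had none. The genes with none were RAB6C and RAB6D, which were nearly silent here. The last 30 coding bases are shown for the members on which the comparisons below turn, because they hold the cysteine codons and let the closely related members be compared. Each is written 5′ to 3′ in lower case with the cysteine codons in capitals.
RAB1A: ccagtcaagcagtcaggtggaggtTGCTGC
RAB1B: cctgtaaagccggctggcggtggcTGTTGC
RAB4A: caggccccgaacgctcaggagTGTggtTGT
RAB5A: caaccaaccaggaatcagTGTTGTagtaac
RAB5B: cagcagaacaagagccagTGTTGTagcaac
RAB8A: aggagcagctttttccgaTGTgttcttctg
RAB8B: aagaccagtttctttcgtTGCtcgctactt
RAB11A: aagccaaaggtgcagTGCTGTcagaacatc
RAB11B: cccaacaagctgcagTGCTGCcagaacctg
RAB14: ccccaaccccagagagaaggcTGTggcTGC
RAB24: aacccctacttctacagcTGTTGTcatcac
In RAB1 the cysteine codons are the last of the coding sequence, in RAB4 and RAB14 another codon separates them, in RAB5, RAB11 and RAB24 they are followed by further codons, and RAB8 has a single one. Coding sequences of the 63 genes ran to between 194 and 1021 codons with a median of 216, the longest being RAB44.

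The shJAM3 library held 16455079 fragments and the shControl library 15570262. JAM3 itself was at 0.154 FPKM in shJAM3 from 14 fragments (FPKM is a fragment count scaled to gene length and library size), and at 0.215 FPKM in shControl, from 18 fragments. Its ratio of 0.716 had a 95% interval of 0.330 to 1.52, which includes 1. The lower bound of 0.330 lies above what the reduction by over 70% named in the design text would leave, so these libraries did not show a knockdown of that size. Of the 6 epithelial markers, KRT18 was at 165 FPKM in shJAM3 and 144.8 FPKM in shControl, and KRT8 and KRT7 were also measured. EPCAM (0.690 FPKM in shJAM3 and 0.904 FPKM in shControl), CDH1 (0.243 FPKM in shJAM3 and 0.169 FPKM in shControl) and KRT19 (3 fragments in shJAM3 and 1 in shControl) were below 1 FPKM. FOLR1, a folate receptor of ovarian carcinoma, was at 1012 FPKM in shJAM3 and 845 FPKM in shControl. The lineage markers WT1 and EMX2 had no fragment in shJAM3, against 1 and 2 fragments in shControl, and PAX8 was at 0.527 FPKM in shJAM3 and 1.12 FPKM in shControl. The leukocyte marker PTPRC and the endothelial marker KDR had no fragment in either library.

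Rab transcripts as a family were at similar levels in both libraries. Summed over all 63 genes, they came to 806 FPKM in shJAM3 and 834 FPKM in shControl. They took 0.288% of all fragments in shJAM3 (47387 fragments, Wilson 95% interval 0.285 to 0.291%) and 0.292% in shControl (45496 fragments, 0.290 to 0.295%). In bulk RNA, fewer cells of a type and less RNA per cell cannot be told apart. The 44 genes whose mean of both libraries reached 1 FPKM are called measured here. On the scale log2(FPKM + 1), their median ratio (shJAM3 over shControl) was -0.05, beside -0.01 over all 10499 measured protein-coding genes. Of the 44, 35 (79.5%) lay within 0.5 of 0 on this scale, beside 79.2% of all measured protein-coding genes.

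Differences of single Rabs were small and went both ways, with 21 of 44 higher in shJAM3 (beside 49.4% of all measured protein-coding genes) and 23 lower (beside 50.6%). On the log2(FPKM + 1) scale, none of the 44 was past a 2-fold rule. Of all measured protein-coding genes, 0.391% were past it on the higher side and 1.41% on the lower. With a 1.5-fold rule, RAB4A and RAB5C were higher (2 of 44, beside 5.12% of all measured protein-coding genes) and RAB24 was lower (1 of 44, beside 9.3%). These shares are close to or under the background. An exact 95% interval for counting error lay above 1 for 16 members (36.4%, beside 34.5% of all) and below 1 for 17 (38.6%, beside 36.8%). In all, 33 of 44 members (75%) differed by more than counting error, against 71.3% of all measured protein-coding genes, so intervals that leave out 1 were common at this depth. These intervals cover counting error only, leave out the spread between cultures, and are too narrow where PCR copies were counted as fragments.

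**Figure D1:**
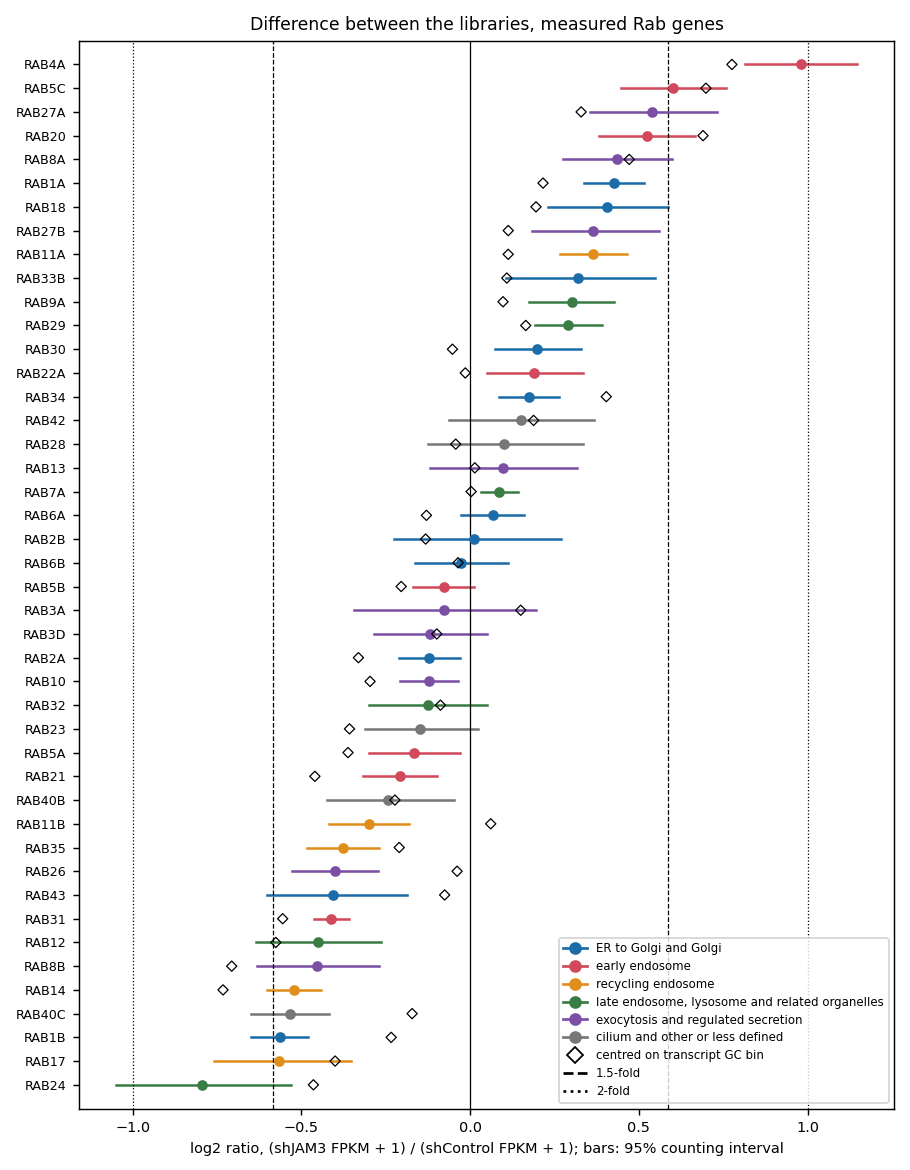
Difference of log2(FPKM + 1), shJAM3 minus shControl (x axis), for the 44 measured Rab genes (y axis), coloured by the compartment each is known for. Points are the values, bars the 95% counting intervals, open diamonds the values after centring on transcript GC content, and dashed and dotted lines the 1.5-fold and 2-fold rules. RAB4A and RAB5C lie beyond the 1.5-fold line on the higher side and RAB24 on the lower side, and the others form a continuous range between them.

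The promoters of the members past the 1.5-fold rule are shown because those genes differ most on the log2(FPKM + 1) scale. By the plain FPKM ratio, RAB17 (0.549) and RAB27A (1.61) differ more than RAB5C (1.56), so the choice depends on the scale. The windows run from 250 bases before to 50 after the RefSeq start (GRCh38.p14). Capitals mark matches on either strand to 6 motifs: CCAAT for the CCAAT box, TATAAA for the TATA box, GGGCGG for the GC box, CACGTG for the E-box, CCGGAAG for the ETS core and TGCGCA for the NRF1 core. The E-box and the NRF1 core read the same on both strands. RAB4A is at chr1:229270861-229271160 on the plus strand, RAB5C at chr17:42154940-42155239 and RAB24 at chr5:177303670-177303969, both on the minus strand.
RAB4A: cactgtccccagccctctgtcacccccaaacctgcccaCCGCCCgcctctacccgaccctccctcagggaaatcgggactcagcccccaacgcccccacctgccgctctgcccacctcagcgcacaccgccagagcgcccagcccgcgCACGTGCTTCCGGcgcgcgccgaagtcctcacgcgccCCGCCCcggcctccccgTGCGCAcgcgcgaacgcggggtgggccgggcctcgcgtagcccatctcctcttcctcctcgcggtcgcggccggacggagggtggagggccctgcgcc
RAB5C: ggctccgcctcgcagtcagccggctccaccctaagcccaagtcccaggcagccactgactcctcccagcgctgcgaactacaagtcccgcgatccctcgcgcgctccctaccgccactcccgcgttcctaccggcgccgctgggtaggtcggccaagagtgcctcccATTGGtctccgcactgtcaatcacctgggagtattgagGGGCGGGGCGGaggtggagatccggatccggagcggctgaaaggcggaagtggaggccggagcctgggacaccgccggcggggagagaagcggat
RAB24: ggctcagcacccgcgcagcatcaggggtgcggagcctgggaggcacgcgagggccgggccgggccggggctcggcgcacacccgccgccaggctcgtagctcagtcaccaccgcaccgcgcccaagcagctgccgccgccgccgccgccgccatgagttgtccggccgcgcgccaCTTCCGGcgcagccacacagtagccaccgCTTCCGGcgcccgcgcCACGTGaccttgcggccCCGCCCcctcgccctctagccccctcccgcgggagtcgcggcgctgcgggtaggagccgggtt
RAB4A holds an E-box that runs directly into an ETS core, 2 GC boxes and an NRF1 core. RAB5C holds a CCAAT box and 2 GC boxes that overlap by 1 base. RAB24 holds 2 ETS cores, an E-box and a GC box. The promoters had 75.7%, 68.3% and 78.0% GC with 38, 29 and 44 CpG dinucleotides for RAB4A, RAB5C and RAB24, in that order.

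Most Rab promoters were of this GC-rich kind. RefSeq windows were found for 38 of the 44 measured genes, and 35 of the 38 had a GC box in at least 1 window, beside 45.0% of all 35116 promoter windows. The windows of the measured Rabs had a median of 24.5 CpG dinucleotides, against 14 over all windows. A TATA box was found for RAB27A alone, beside 11.5% of all windows. An E-box was found for 6 genes, RAB4A, RAB5A, RAB21, RAB24, RAB29 and RAB31, beside 7.26% of all windows, and of these RAB4A and RAB29 were higher and the other 4 lower in shJAM3. A gene can have more than 1 window, so these shares of genes and of windows have different denominators. A match is a description of the letters and not a site.

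Levels of the measured Rabs differed widely. RAB7A, the Rab of late endosomes and lysosomes, was the most abundant at 127 FPKM in shJAM3 and 119.6 FPKM in shControl, and its mean ranked 252 among 19932 protein-coding genes. RAB1B, which acts in transport from the endoplasmic reticulum (ER) to the Golgi, followed at 57.4 FPKM in shJAM3 and 85.3 FPKM in shControl. RAB31, which acts between the trans-Golgi network and endosomes, was at 54.5 FPKM in shJAM3 and 72.8 FPKM in shControl. These 3 genes made up 29.6% of the summed Rab FPKM in shJAM3 and 33.3% in shControl. A further 12 genes had means of 20 to 50 FPKM, 16 of 5 to 20 FPKM and 13 of 1 to 5 FPKM. RAB1A, RAB34, RAB10, RAB14 and RAB20 were the most abundant of the 12. The measured gene nearest the 1 FPKM limit was RAB43 with a mean of 1.503 FPKM, and the nearest below it was RAB41 with 0.502 FPKM.

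**Figure D2:**
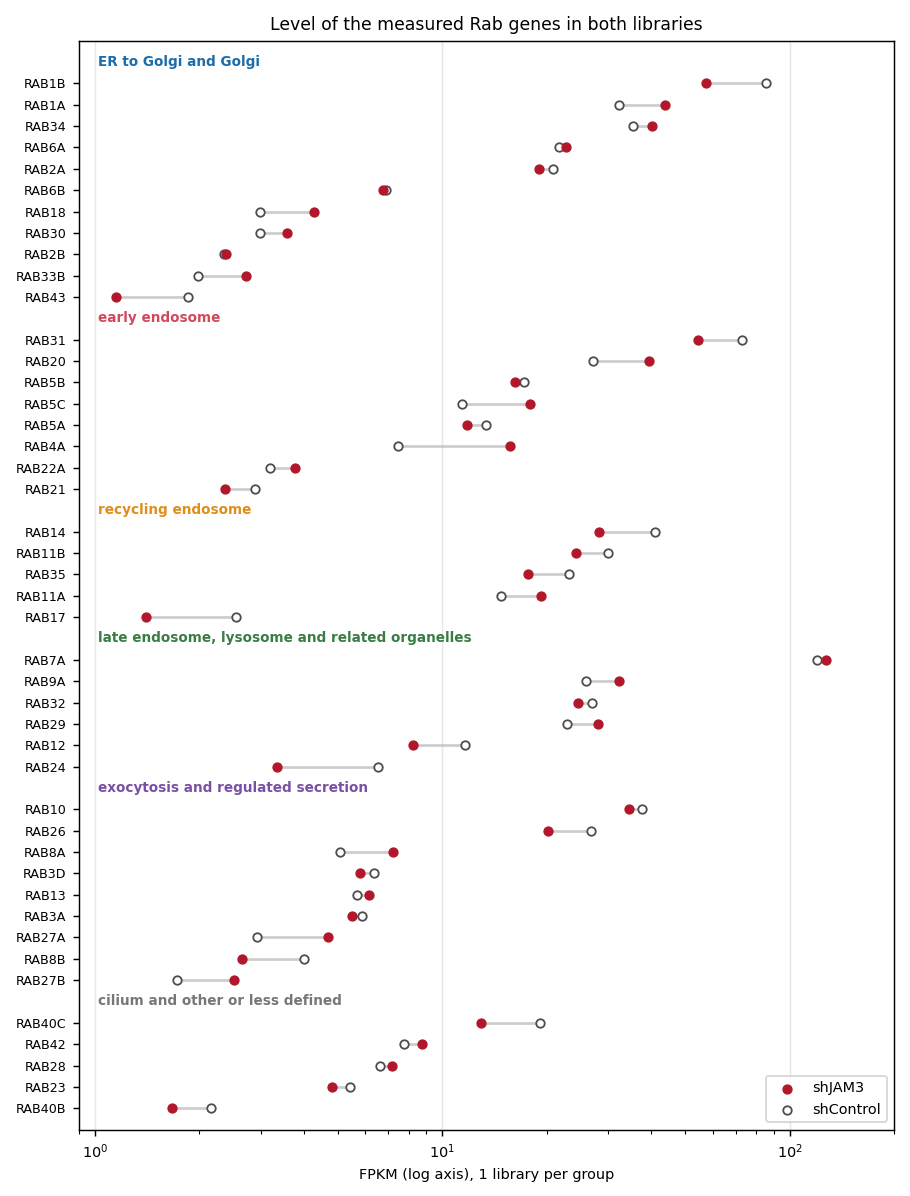
FPKM on a log axis (x axis) of the 44 measured Rab genes (y axis), grouped by compartment, with filled points for the shJAM3 library and open points for the shControl library. The lines join the values of a gene. The order of levels within a compartment differs between the libraries for some genes, such as RAB5C and RAB11A. The longest line among endosomal Rabs is that of RAB4A, at 15.7 FPKM in shJAM3 and 7.45 FPKM in shControl.

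Early endosome Rabs held both members past the 1.5-fold rule on the higher side, but as a group they split evenly. Of 9 genes 8 were measured, 4 higher and 4 lower in shJAM3, with a median of 0.06. After centring on the GC content of the transcripts (described with the GC values below), 3 were higher and 5 lower, with a median of -0.11. RAB4A (ENSG00000168118, GRCh38 chromosome 1, 229271062 to 229305894, plus strand) drives rapid recycling of receptors from early endosomes to the cell surface. It was at 15.7 FPKM in shJAM3 (865 fragments) and 7.45 FPKM in shControl (379 fragments), a ratio of 2.10 (1.86 to 2.38). On the log2(FPKM + 1) scale its difference was 0.98, just under the 2-fold rule. RAB4A shares 19.6% of its exon bases with SPHAR on the same strand, a gene with no fragment in either library. Fragments from shared exons cannot be assigned to either gene, so the 0 does not show that SPHAR is silent. The level of RAB4A is thus uncertain.

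RAB5A, RAB5B and RAB5C are closely related regulators of early endosome fusion, and they did not move alike. RAB5C (ENSG00000108774, chromosome 17, 42124976 to 42155044, minus strand) was at 17.9 FPKM in shJAM3 and 11.4 FPKM in shControl, a ratio of 1.56 (1.39 to 1.75). RAB5A was at 11.8 FPKM in shJAM3 and 13.4 FPKM in shControl, a ratio of 0.883 (0.798 to 0.978). RAB5B was at 16.2 FPKM in shJAM3 and 17.2 FPKM in shControl, with an interval of 0.883 to 1.01 that includes 1. The sum of the 3 was 45.9 FPKM in shJAM3 and 42.0 FPKM in shControl, and RAB5C made up 38.9% of it in shJAM3 against 27.3% in shControl. RAB5C was thus the most abundant of the 3 in shJAM3 and the least abundant in shControl. Of its exon bases 30.4% are shared with other annotated genes, mainly AC099811.2 on the same strand, which had no fragment in either library. As with RAB4A, that count does not show that AC099811.2 is silent, and the level of RAB5C is uncertain.

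The remaining early endosome Rabs went in both directions. RAB20, which acts in maturation of phagosomes and endosomes, was at 39.4 FPKM in shJAM3 and 27.1 FPKM in shControl, a ratio of 1.45 (1.32 to 1.61), and shares no exon base with another gene. RAB22A, which acts between early and recycling endosomes, was at 3.78 FPKM in shJAM3 and 3.19 FPKM in shControl. RAB31 was lower, with a ratio of 0.749 (0.721 to 0.777), the narrowest interval below 1 in the family because of its 5081 fragments in shJAM3 and 6251 in shControl. RAB21, known for the traffic of integrins, was at 2.37 FPKM in shJAM3 and 2.89 FPKM in shControl, a ratio of 0.819 (0.735 to 0.913).

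Recycling endosome Rabs were on the lower side, with 4 of 5 measured genes lower in shJAM3 (beside 50.6% of all measured protein-coding genes) and a median of -0.38. Their median GC was 57.6%, and after GC centring 3 were lower and 2 higher, with a median of -0.21. Their summed level was 90.8 FPKM in shJAM3 and 111.5 FPKM in shControl. RAB14, which acts between the trans-Golgi network and endosomes, was at 28.3 FPKM in shJAM3 (2029 fragments) and 41.0 FPKM in shControl (2712 fragments), a ratio of 0.689 (0.650 to 0.730). It shares no exon base with another gene. RAB35, which acts in recycling at the plasma membrane, was at 17.6 FPKM in shJAM3 and 23.1 FPKM in shControl, a ratio of 0.761. RAB17, known from polarized epithelial cells, was at 1.404 FPKM in shJAM3 and 2.56 FPKM in shControl, a ratio of 0.549 (0.430 to 0.697). RAB11A, the main Rab of recycling endosomes, was at 19.3 FPKM in shJAM3 and 14.7 FPKM in shControl, a ratio of 1.31 (1.22 to 1.41). Its close relative RAB11B was lower, at 24.2 FPKM in shJAM3 and 30.1 FPKM in shControl, a ratio of 0.806 (0.739 to 0.878). RAB25, the epithelial member related to RAB11, had no fragment in shJAM3 and 3 in shControl.

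Late endosome, lysosome and organelle-related Rabs had 3 genes higher and 3 lower in shJAM3 and a median of -0.02. RAB7A differed little, with a ratio of 1.06 (1.022 to 1.10). RAB9A, which returns mannose 6-phosphate receptors to the trans-Golgi network, was at 32.3 FPKM in shJAM3 and 26.002 FPKM in shControl. Its ratio was 1.24 (1.13 to 1.36). RAB29, a partner of the kinase LRRK2, was at 28.2 FPKM in shJAM3 and 22.8 FPKM in shControl, a ratio of 1.23. RAB32, known from melanosome biogenesis, was at 24.6 FPKM in shJAM3 and 26.9 FPKM in shControl, with an interval of 0.806 to 1.04 that includes 1. RAB12, which acts in the degradation of recycling receptors, was at 8.26 FPKM in shJAM3 and 11.6 FPKM in shControl, a ratio of 0.709.

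RAB24 (ENSG00000169228, chromosome 5, 177301198 to 177303744, minus strand), associated with autophagy, had the lowest ratio of the 44 measured members. It was at 3.34 FPKM in shJAM3 (115 fragments) and 6.53 FPKM in shControl (207 fragments), a ratio of 0.512 (0.404 to 0.646). It shares 44.8% of its exon bases with MXD3 on the same strand, and MXD3 was at 2.11 FPKM in shJAM3 and 2.30 FPKM in shControl, a ratio of 0.916 (0.742 to 1.13). Fragments from the shared exons cannot be assigned to either gene, so the level of RAB24 is uncertain.

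Of the Rabs of the ER and the Golgi, 7 of 11 measured genes were higher, beside 49.4% of all measured protein-coding genes. The other 4 were lower, and the median was 0.07. The sign turned after GC centring, with 4 higher and 7 lower and a median of -0.05. RAB1A was at 43.6 FPKM in shJAM3 and 32.2 FPKM in shControl, a ratio of 1.35 (1.27 to 1.44). RAB1B went the other way, with a ratio of 0.673 (0.634 to 0.714). RAB1A shares 22.9% of its exon bases with CEP68 on the opposite strand, and RAB1B 42.6% with noncoding genes on the opposite strand. RAB2A, which acts at the ER-Golgi intermediate compartment and the Golgi, was at 19.0 FPKM in shJAM3 and 20.8 FPKM in shControl, and RAB2B at 2.39 FPKM in shJAM3 and 2.36 FPKM in shControl. RAB6A, a regulator of retrograde traffic at the Golgi, was at 22.8 FPKM in shJAM3 and 21.7 FPKM in shControl, and its relative RAB6B at 6.74 FPKM in shJAM3 and 6.88 FPKM in shControl. The intervals of RAB2B, RAB6A and RAB6B include 1. RAB18, found on the ER and on lipid droplets, was at 4.29 FPKM in shJAM3 and 2.99 FPKM in shControl, a ratio of 1.43 (1.23 to 1.67). RAB33B, a Golgi Rab that binds an autophagy factor, was at 2.72 FPKM in shJAM3 and 1.98 FPKM in shControl, a ratio of 1.37. RAB30, also of the Golgi, was at 3.58 FPKM in shJAM3 and 2.99 FPKM in shControl. RAB18, RAB33B and RAB30 were thus all higher in shJAM3, each at under 5 FPKM. RAB34 was at 40.1 FPKM in shJAM3 and 35.4 FPKM in shControl, a ratio of 1.13. RAB43 was at 1.15 FPKM in shJAM3 and 1.85 FPKM in shControl, a ratio of 0.623 (0.476 to 0.812). However, 79.3% of its exon bases are shared with the readthrough gene ISY1-RAB43, which had no fragment in either library. That count does not show that the readthrough gene is silent, so the level of RAB43 is uncertain.

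The exocytic and secretory Rabs were 4 higher and 5 lower among 9 measured, with a median of -0.08. RAB27A and RAB27B, which tether secretory lysosomes and multivesicular endosomes at the plasma membrane, were both higher. RAB27A was at 4.71 FPKM in shJAM3 and 2.93 FPKM in shControl, a ratio of 1.61 (1.37 to 1.89), and RAB27B was at 2.51 FPKM in shJAM3 and 1.73 FPKM in shControl, a ratio of 1.45 (1.21 to 1.75). RAB8A and RAB8B, which carry cargo from the Golgi to the plasma membrane and the cilium, went opposite ways. RAB8A was at 7.20 FPKM in shJAM3 and 5.07 FPKM in shControl, a ratio of 1.42 (1.25 to 1.61). Other annotated genes share 41.7% of its exon bases. RAB8B was at 2.65 FPKM in shJAM3 and 4.01 FPKM in shControl, a ratio of 0.662 (0.556 to 0.787). RAB10, known for the delivery of glucose transporters, was at 34.4 FPKM in shJAM3 and 37.5 FPKM in shControl. RAB13, known for the traffic of tight junction proteins, was at 6.17 FPKM in shJAM3 and 5.70 FPKM in shControl, with an interval of 0.908 to 1.29 that includes 1. RAB26, a Rab of secretory granules, was at 20.1 FPKM in shJAM3 and 26.8 FPKM in shControl, a ratio of 0.749. RAB3A, a Rab of regulated exocytosis, was at 5.51 FPKM in shJAM3 and 5.87 FPKM in shControl, and RAB3D at 5.80 FPKM in shJAM3 and 6.38 FPKM in shControl. Both have intervals that include 1.

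Among the remaining Rabs, 2 of 5 measured genes were higher and 3 lower. RAB40C, whose SOCS box links it to ubiquitin ligases, was at 12.9 FPKM in shJAM3 and 19.2 FPKM in shControl, a ratio of 0.675 (0.618 to 0.736). RAB40B, of the same type, was at 1.66 FPKM in shJAM3 and 2.15 FPKM in shControl, a ratio of 0.773. RAB23, a negative regulator of hedgehog signalling, was at 4.81 FPKM in shJAM3 and 5.43 FPKM in shControl, with an interval that includes 1, and 57.7% of its exon bases lie under BAG2 on the opposite strand. RAB28 was at 7.18 FPKM in shJAM3 and 6.62 FPKM in shControl, and RAB42 at 8.75 FPKM in shJAM3 and 7.78 FPKM in shControl, also with intervals that include 1.

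The 19 genes below 1 FPKM included tissue-restricted members. A total of 13 had at least 1 fragment, none above 0.714 FPKM in either library, and the intervals of all 13 include 1. RAB41 had 16 fragments in shJAM3 and 6 in shControl, and RAB15 had 22 fragments in shJAM3 and 29 in shControl. RAB36 had 22 fragments in shJAM3 and 10 in shControl, and RAB40A had 22 in shJAM3 and 11 in shControl. The neuronal and secretory members RAB3B and RAB3C had at most 3 fragments. RAB4B had 3 fragments in shJAM3 and 6 in shControl, so RAB4A made up 99.7% of RAB4 FPKM in shJAM3 and 98.7% in shControl. RAB4B shares 39.6% of its exon bases with other annotated genes. Its count, and with it the share of RAB4A, is thus uncertain. RAB6C and RAB6D had at most 4 fragments, and 61.1% and 62.0% of their 31-base words occur in each other. RAB9B, RAB19, RAB38, RAB39A, RAB39B and RAB44 were without a fragment in both libraries. A count of 0 allows up to 3 fragments, which gave upper limits of 0.0421 to 0.180 FPKM in shJAM3 and 0.0457 to 0.196 FPKM in shControl.

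Genes that share a Rab number showed opposite differences in several cases. The ratio of a sum always lies between the ratios of its parts, so a smaller change of the sum is no finding here. RAB1A and RAB1B, whose coding sequences are 76.5% identical, differed by 0.99 on the log2(FPKM + 1) scale. RAB1A made up 43.2% of their summed FPKM in shJAM3 and 27.4% in shControl, and the sum was 101 FPKM in shJAM3 and 117 FPKM in shControl. RAB1A shares 22.9% and RAB1B 42.6% of exon bases with other annotated genes, so this sum and share are uncertain. RAB11A and RAB11B (73.1% identical) differed by 0.67, and their sum was 43.5 FPKM in shJAM3 and 44.8 FPKM in shControl. RAB11A made up 44.3% of that sum in shJAM3 and 32.9% in shControl.

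RAB8A and RAB8B (76.6% identical) differed by 0.89, and their sum was 9.85 FPKM in shJAM3 and 9.07 FPKM in shControl. RAB8A made up 73.1% of it in shJAM3 and 55.8% in shControl. As RAB8A shares 41.7% of its exon bases with other annotated genes, this sum and share are uncertain. The RAB2, RAB3 and RAB6 pairs kept nearly the same proportions, with RAB2A at 88.8% of its pair in shJAM3 and 89.8% in shControl. RAB27 was the sub-family with 2 measured genes that were both higher, at 7.22 FPKM in shJAM3 and 4.65 FPKM in shControl in sum. RAB40 was lower in sum, at 14.9 FPKM in shJAM3 and 21.5 FPKM in shControl, most of it RAB40C.

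**Figure D3:**
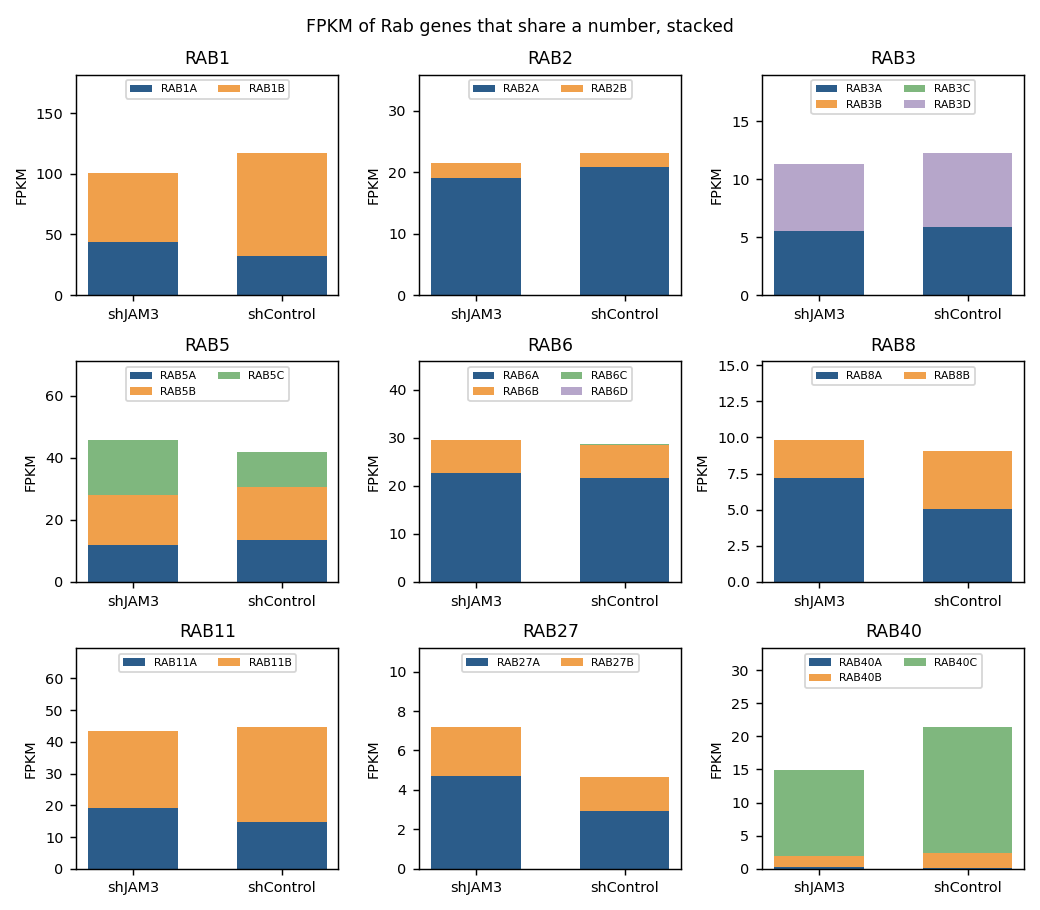
FPKM (y axis, from 0) of Rab genes that share a number, stacked by gene, with the shJAM3 library left and the shControl library right in each panel (1 library each, no error bars). RAB1, RAB8 and RAB11 have a larger A part in shJAM3, RAB5 has a larger RAB5C part in shJAM3, and RAB27 and RAB40 differ in total height.

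The ratio moved with the GC content of the transcripts in these libraries, and the values of the related Rabs are given beside it. Across all 10496 measured protein-coding genes with a GC value, the log2 ratio and GC had r = -0.50, and across the 44 Rabs r = -0.40. Both describe genes of the same 2 libraries, which are not independent replicates. The 16 Rabs with intervals above 1 had a median GC of 39.4%, and the 17 with intervals below 1 a median of 52.7%. RAB1A and RAB1B transcripts have 38.3% and 61.1% GC. After each gene was centred on the median of its GC bin, their difference was 0.45. RAB11A and RAB11B have 37.2% and 63.5% GC, and their difference after centring was 0.05.

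RAB8A and RAB8B run against the trend, with 54.1% GC in the higher gene and 36.2% in the lower, and their difference after centring was 1.18. RAB5C likewise has a higher GC, at 55.8%, than RAB5A at 42.0% and RAB5B at 46.3%. Its centred value was 0.70, against -0.36 for RAB5A and -0.20 for RAB5B. RAB4A, at 39.3% GC, had a centred value of 0.78. RAB20 had 0.69 and joined RAB4A and RAB5C past the 1.5-fold rule (3 of 44, beside 3.48% of all measured protein-coding genes). On the lower side RAB14 at -0.73 and RAB8B at -0.71 were past the rule after centring (2 of 44, beside 5.26%), and RAB24 at -0.46 was not. Of the 33 members with intervals that leave out 1, 30 kept their sign after centring. The exceptions were RAB11B, RAB22A and RAB30. RAB27A and RAB27B had centred values of 0.33 and 0.11, against 0.54 and 0.36 before, and RAB40C, at 64.4% GC, had -0.17, against -0.53 before. What part GC content plays in these values was not tested.

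**Figure D4:**
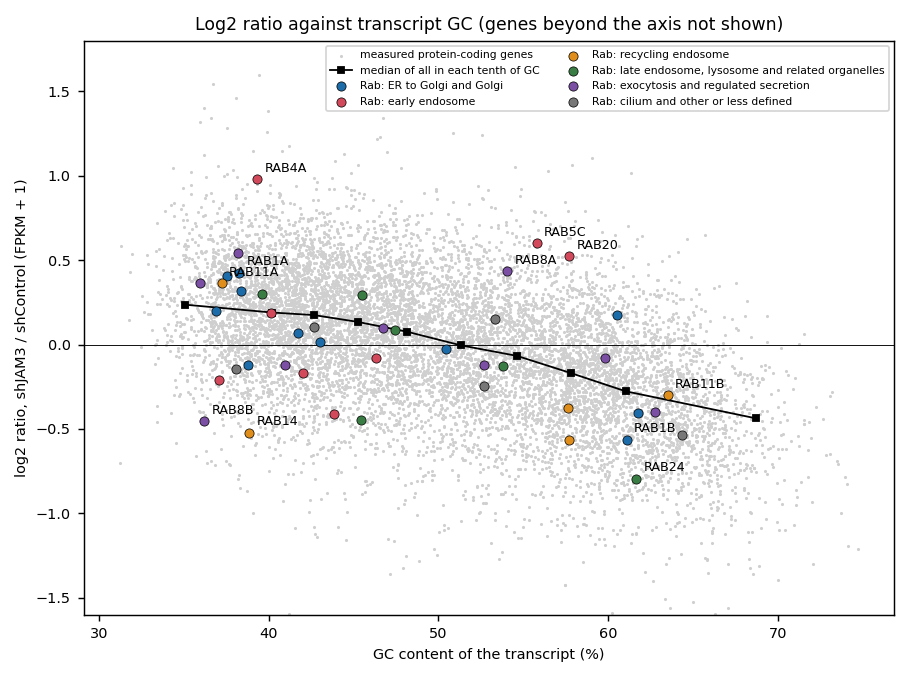
Difference of log2(FPKM + 1), shJAM3 minus shControl (y axis), against transcript GC content (x axis) for all measured protein-coding genes (grey) and the measured Rab genes (coloured by compartment). The black line joins the medians of all genes in successive groups of genes ordered by GC, from 0.24 in the lowest to -0.44 in the highest: RAB1A, RAB1B, RAB11A and RAB11B lie on the side the line takes at their GC, while RAB5C, RAB8A and RAB20 lie above it and RAB8B and RAB14 below it.

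The genes that act on Rabs went both ways, and the largest differences lay among single regulators. Of the 11 genes of the Rab membrane cycle, all measured, 6 were higher and 5 lower, with a median of 0.15 (0.09 after GC centring). CHML, which encodes a Rab escort protein, was at 6.11 FPKM in shJAM3 (781 fragments) and 1.801 FPKM in shControl (212 fragments), a ratio of 3.39 (2.91 to 3.97), and it was past the 2-fold rule. CHM, which encodes the other escort protein, was at 3.41 FPKM in shJAM3 and 2.08 FPKM in shControl, a ratio of 1.64. After GC centring CHML was at 1.09 and CHM at 0.27 on the log2 scale. The subunits of the geranylgeranyl transferase went opposite ways, with RABGGTB at a ratio of 1.27 and RABGGTA at 0.769. GDI2, which encodes a GDP dissociation inhibitor, had a ratio of 1.28, and RABAC1, whose product binds prenylated Rabs, a ratio of 0.724.

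Rab GEFs were 17 higher and 14 lower among 31 measured of 38, with a median of 0.03. CCZ1B, a subunit of the RAB7 exchange factor, had a ratio of 1.89, and CCZ1 is a near-identical copy, so its value is uncertain. MADD, an exchange factor for RAB3 and RAB27, was at 35.9 FPKM in shJAM3 and 56.9 FPKM in shControl, a ratio of 0.631 (0.609 to 0.654). RAB3IL1, which acts on RAB3 and RAB8 relatives, had a ratio of 0.662, and SBF2 a ratio of 1.58. Of the TRAPP complexes, which activate RAB1 and RAB11, 8 of 12 measured genes were higher (beside 49.4% of all), with a median of 0.15. After GC centring 7 were higher and 5 lower, with a median of 0.05. TRAPPC6A, TRAPPC12 and TRAPPC9 had ratios of 0.675, 0.629 and 0.694, and TRAPPC2 a ratio of 1.78.

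Of 34 measured Rab GAPs, 22 were lower and 12 higher, with a median of -0.10 (50.6% of all measured protein-coding genes were lower). Past the 1.5-fold rule were 4 on the lower side, beside 9.3% of all, and 1 on the higher, beside 5.12%. TBC1D4 (AS160), which acts on RAB10 and is a substrate of AKT, was at 6.46 FPKM in shJAM3 (859 fragments) and 15.5 FPKM in shControl (1895 fragments), a ratio of 0.418 (0.385 to 0.453). It was past the 2-fold rule, and its GC-centred value was -1.29. TBC1D10B, a GAP for RAB27 and RAB35, was at 13.2 FPKM in shJAM3 and 27.2 FPKM in shControl, a ratio of 0.485 (0.455 to 0.517). TBC1D9B had a ratio of 0.605. USP6NL, which acts on RAB5, was at 4.49 FPKM in shJAM3 and 2.26 FPKM in shControl, a ratio of 1.99 (1.78 to 2.21).

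Effectors that Rabs recruit also went both ways. Golgi effectors were 8 higher and 7 lower among 15, with a median of 0.10: the golgins GOLGB1 and GOLGA4 had ratios of 1.72 and 1.57, while GOLGA2 (GM130), a RAB1 effector, was at 32.0 FPKM in shJAM3 and 54.1 FPKM in shControl, and GOLGA5 had a ratio of 0.636. Early endosome effectors had a median of 0.06, with RABEP1, which binds RAB4 and RAB5, at a ratio of 1.43, PIK3C3 at 1.69 and RBSN, which also binds RAB4 and RAB5, at 0.712. Recycling effectors had a median of 0.05, which turned to -0.11 after GC centring, with RAB11FIP5 and RAB11FIP3 at ratios of 0.671 and 0.685, RUFY1 at 0.696 and the exocyst subunit EXOC4 at 1.495.

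Late endosome effectors had a median of -0.29, with 7 of 11 genes lower (beside 50.6% of all measured protein-coding genes). After GC centring 9 were lower and 2 higher, with a median of -0.28. RILP, which links RAB7 to dynein, was at 5.90 FPKM in shJAM3 and 12.9 FPKM in shControl, a ratio of 0.457 (0.385 to 0.541), and was past the 2-fold rule, while its GC-centred value was -0.51. RABEPK, a RAB9 effector, had a ratio of 1.64, PLIN3 of 0.700 and FYCO1 of 0.701. Effectors of RAB8, RAB10, RAB13 and RAB35 had a median of -0.22, and 9 of the 11 genes were lower, beside 50.6% of all measured protein-coding genes. After GC centring 7 were lower and 4 higher, with a median of -0.23. Among the lower genes were RILPL1 (ratio 0.472), MICALL1 (ratio 0.590) and EHBP1L1 (ratio 0.656), while EHBP1 had a ratio of 1.52. Of 14 effectors of the secretory Rabs 3 were measured, UNC13D, SYTL5 and RPH3AL, with ratios of 0.687, 0.811 and 0.836, and the intervals of SYTL5 and RPH3AL include 1. Of the Rab kinases and phosphatases, LRRK1 had a ratio of 0.636, PPM1H a ratio of 1.00, and LRRK2 was below 1 FPKM.

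**Figure D5:**
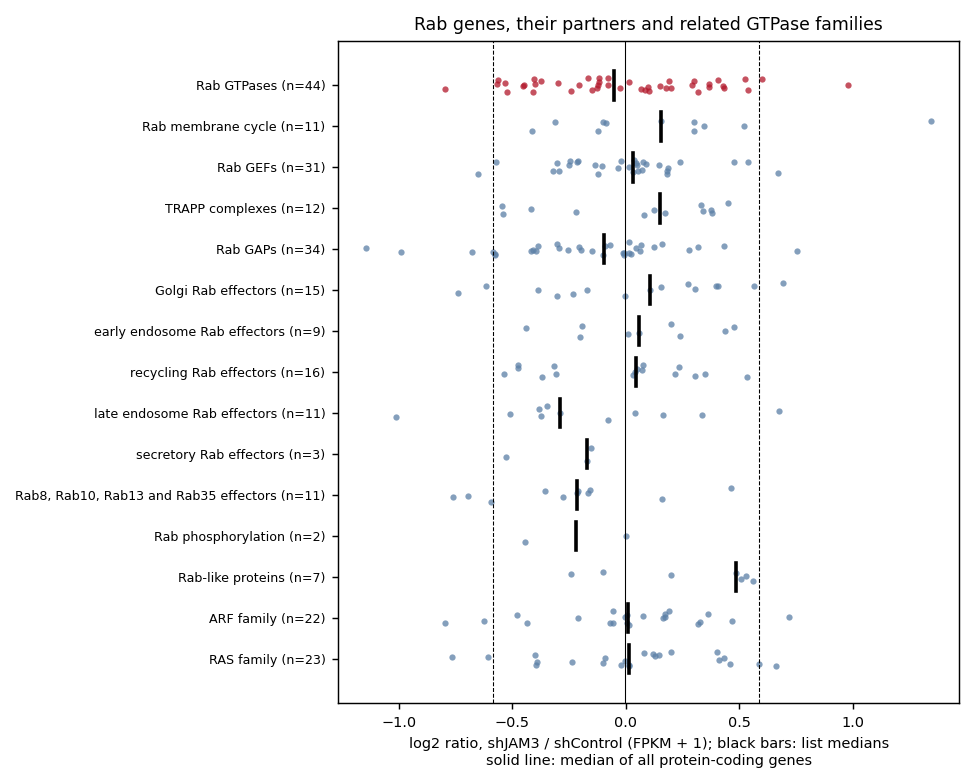
Difference of log2(FPKM + 1), shJAM3 minus shControl (x axis), for the measured genes of each list (y axis, with the number measured), Rab GTPases in red and the other lists in blue. Black bars are list medians and dashed lines the 1.5-fold rule. The Rab genes have a median of -0.05 and stay within the 2-fold range, while CHML among the membrane cycle genes, TBC1D4 among the GAPs and RILP among the late endosome effectors lie beyond it.

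Other branches of the Ras superfamily also had medians close to 0. The median was 0.01 for 22 measured ARF family genes and 0.01 for 23 RAS family genes, and after GC centring -0.09 and -0.07. ARF6, which acts in recycling at the plasma membrane, was at 24.7 FPKM in shJAM3 and 43.5 FPKM in shControl, a ratio of 0.567, and ARL3, a ciliary GTPase, had a ratio of 1.78. RALB, which acts through the exocyst, had a ratio of 1.61 and RAP2B of 0.527. Of 7 measured genes in the Rab-like list 5 were higher (beside 49.4% of all measured protein-coding genes), with a median of 0.49. After GC centring all 7 were higher, with a median of 0.32. The list also counted RAN, the GTPase of nuclear transport and a separate branch of the superfamily. RAN was at 166 FPKM in shJAM3 and 118.5 FPKM in shControl, and its own value of 0.49 was the list median. Also higher were IFT22 at a ratio of 1.54, RABL3 at 1.68 and RABL2B at 1.81. RABL2B has a near-identical copy, RABL2A, so its value is uncertain.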

How the data were processed

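RNA was measured by poly(A)-selected sequencing in 2 libraries. The authors deposited FPKM per gene. The submitters' processing notes name HISAT2 2.0.5 and featureCounts 1.5.0-p3 among other tools, without stating their roles or order. They name no genome build. All 58735 identifiers, symbols, coordinates and lengths matched GENCODE 29 (GRCh38). FPKM multiplied by gene length gave whole fragments for 100% of values above 0 (tolerance 0.001 fragments). The library sizes that the deposited FPKM imply are 1.01 times the recovered total in shJAM3 and 0.987 times in shControl.

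Where a symbol had several rows, only that with the highest mean FPKM was kept (1566 left out). Log2 ratios used a pseudocount of 1 FPKM, which understates differences of low genes. Measured genes had a mean of at least 1 FPKM. Ratios are of FPKM without the pseudocount, with exact conditional binomial 95% intervals. GC content came from the longest coding transcript of each gene and was centred in 20 bins. Shared sequence was counted over exon bases and 31-base words. The protocol describes no step that marks strand. Members and lists were chosen with earlier results of these data known. Named were JAM3, every member (intervals for the extremes, the most abundant and those past 1.5-fold) and up to 4 measured genes of each partner list by absolute log2 ratio. RABGGTA, RABGGTB, LRRK2, CCZ1 and RABL2A were added after their values were seen. Some genes, 1 partner list and 1 coding end are not reported here. Values were computed in Python 3.11.15 with scipy 1.17.1, by code tested on simulated data. Alternatives were another pseudocount, 2 other scalings, GC centring, 3 filters and leaving out members with a shared exon base or a near-identical gene.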

Additional observations from a re-analysis of the deposited data

How the results depend on the processing

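No paired analysis was possible because each group has 1 library, and for the same reason no library could be left out. The median log2 ratio of the measured Rabs ranged from -0.08 to 0.10 over the alternatives. It was positive, at 0.10, when members with a shared exon base or a near-identical gene were left out (19 genes). Near-identical here means at least 20% of 31-base words in a single other gene, so the 19 genes can still share some words. The number past the 2-fold rule on the higher side was 0 and became 1 (RAB4A) with a pseudocount of 0.1 FPKM or scaling to total fragments. The number past the 1.5-fold rule on the lower side was 1. It became 3 (RAB24, RAB17 and RAB43) with a pseudocount of 0.1 FPKM and 2 (RAB14 and RAB8B) after GC centring. At a mean of at least 5 FPKM it was 0. Beside these, 9.3%, 12.3%, 5.26% and 10.9% of all measured protein-coding genes were past it, in the same order. Among the 19 genes with no shared exon base and no near-identical gene, the number past the rule on the lower side was 0. It was also 0 on the higher side, since RAB4A, RAB5C and RAB24 all overlap another gene. Members with intervals that leave out 1 were 33 of 44 as reported and 21 of 31 at a mean of at least 5 FPKM. They were 16 of 19 with no shared exon base and no near-identical gene. No share over all genes is given beside these filtered counts, nor beside the counts of 0 among the 19 genes. They therefore cannot be set against a background. These smaller counts come with fewer genes tested. Scaling to total fragments gave a summed Rab level of 817 FPKM in shJAM3 and 823 FPKM in shControl. GC centring turned the sign of the medians of the recycling effectors (to -0.11), ARF family (to -0.09), RAS family (to -0.07), ER and Golgi Rabs (to -0.05) and early endosome Rabs (to -0.11). The exocytic Rabs turned from -0.08 to 0.01. After centring, 30 of 44 members had a value outside their counting interval as reported. No matching share of all measured protein-coding genes is given, so this count cannot be read as particular to the Rabs. No named member past the 1.5-fold rule changed sign under the pseudocount, scaling or GC alternatives. Scaling to total fragments moved the median of all measured protein-coding genes to 0.03.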
